A study of Mus musculus with 29 samples.

Results

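The 9 listed genes of oocyte meiotic arrest were followed in ovary RNA from mice labelled wild type or null for Cdkn1b. The genes were Gpr3, Gpr12, Pde3a, Wee2, Mos, Ccnb3 and Cdc25b, which act in the oocyte, and Nppc and Npr2, which act in the granulosa cells around it. They were taken by name, and all 9 were found among the 51912 gene IDs of the deposited table. Ccnb3 was in addition chosen by its measured level, which rose sharply at E18.5, so its levels across ages are given as a description with no test.

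The samples were dissociated cells of whole ovaries, profiled by bulk RNA sequencing, from Cdkn1b +/+ mice (wild type) and Cdkn1b -/- mice (Cdkn1b-null). Cdkn1b encodes p27Kip1, which inhibits cyclin-dependent kinases. Both genotypes were sampled before birth, on the embryonic days 13.5 and 18.5 (E13.5, E18.5), and after it, on the postnatal day 8 (PND8) and in adults of 12 weeks (12wk). Every age had 4 wild-type libraries, and there were 4 Cdkn1b-null libraries at E18.5 and 3 at each other age, which makes 29. The study was about gene activity that depends on p27Kip1 in the pregranulosa cells and the activation of primordial follicles. The labels give no treatment, no strain, no Cre driver and no number of animals per sample, so p-values measure the spread between these samples, which may be technical in part.

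A mouse oocyte enters meiosis before birth, stops late in the first meiotic prophase, and stays arrested inside its follicle until the luteinizing hormone surge. In the growing follicle, Gpr3, like Gpr12 a receptor that can raise cyclic AMP, keeps cyclic AMP high in the oocyte. Protein kinase A then holds Wee2 active and Cdc25b inactive, so that the Cdk1 kinase stays inhibited. Granulosa cells secrete the peptide encoded by Nppc, its receptor Npr2 makes cyclic GMP, and cyclic GMP passes through gap junctions and blocks Pde3a, the enzyme that would break the cyclic AMP down. Mos and Ccnb3 act later in the meiotic divisions.

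The sequence just before the transcription start is shown for 4 of the members: Wee2, an oocyte kinase that was highest on average at PND8, Ccnb3, which peaked at E18.5, and the ligand and receptor pair Nppc and Npr2. Each run is the 250 bases 5′ of the RefSeq start on GRCm38.p6, on the gene's own strand, with matches to CANNTG (the E-box) or GGGCGG (the GC box) on either strand in capitals. The windows lie at chr6:40442613-40442862 (Wee2, plus strand), chrX:7041620-7041869 (Ccnb3, minus strand), chr1:86670574-86670823 (Nppc, minus strand) and chr4:43631685-43631934 (Npr2, plus strand).
Wee2: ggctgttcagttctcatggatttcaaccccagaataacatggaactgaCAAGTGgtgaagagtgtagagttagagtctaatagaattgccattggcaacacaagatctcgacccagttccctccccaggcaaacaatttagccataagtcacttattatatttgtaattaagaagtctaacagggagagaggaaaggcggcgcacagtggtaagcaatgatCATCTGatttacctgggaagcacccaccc
Ccnb3: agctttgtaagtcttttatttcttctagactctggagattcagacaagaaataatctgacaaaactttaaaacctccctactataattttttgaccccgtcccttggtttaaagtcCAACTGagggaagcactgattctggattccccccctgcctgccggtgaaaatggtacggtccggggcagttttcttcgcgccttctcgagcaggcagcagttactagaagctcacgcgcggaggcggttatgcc
Nppc: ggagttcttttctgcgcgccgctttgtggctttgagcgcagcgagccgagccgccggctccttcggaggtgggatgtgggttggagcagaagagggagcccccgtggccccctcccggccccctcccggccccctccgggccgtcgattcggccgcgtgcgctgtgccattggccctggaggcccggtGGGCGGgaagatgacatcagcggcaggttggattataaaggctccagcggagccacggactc
Npr2: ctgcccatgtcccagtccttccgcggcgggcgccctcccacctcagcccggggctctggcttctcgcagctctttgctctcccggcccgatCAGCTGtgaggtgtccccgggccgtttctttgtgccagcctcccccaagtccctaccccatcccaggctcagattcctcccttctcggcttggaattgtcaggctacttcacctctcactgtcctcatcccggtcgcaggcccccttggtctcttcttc
The Wee2 window held 2 E-boxes, those of Ccnb3 and Npr2 held 1 each, and that of Nppc held none but 1 GC box. An E-box occurred in 66.2% of the 32851 RefSeq windows of this length and a GC box in 32.7%. TAATTG, a core bound by the oocyte factor Nobox, was found in 7.17% of all windows, and TTTGAA, a cell-cycle element known as CHR, in 16%. Neither of these was found in any of the members' windows. The GC content was 44.4% for Wee2, 48.0% for Ccnb3, 69.2% for Nppc and 64.4% for Npr2. RefSeq entries matched 7 of the 9 members, the others being Pde3a and Mos. The RefSeq start of Wee2 lies inside the gene as GENCODE M21 draws it, which begins at 40439088.

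In the GENCODE M21 annotation of GRCm38, Gpr3 (ENSMUSG00000049649) lies on chromosome 4 at 133209340 to 133212536, Gpr12 (ENSMUSG00000041468) on chromosome 5 at 146582398 to 146585239 and Pde3a (ENSMUSG00000041741) on chromosome 6 at 141249269 to 141507448. Wee2 (ENSMUSG00000037159) lies on chromosome 6 at 40439088 to 40466813, Mos (ENSMUSG00000078365) on chromosome 4 at 3870657 to 3872105, Ccnb3 (ENSMUSG00000051592) on chromosome X at 6979652 to 7041619 and Cdc25b (ENSMUSG00000027330) on chromosome 2 at 131186949 to 131198497. Nppc (ENSMUSG00000026241) lies on chromosome 1 at 86666291 to 86670571 and Npr2 (ENSMUSG00000028469) on chromosome 4 at 43631935 to 43651244. Exons of Gpr3, Pde3a, Npr2 and Cdc25b overlap exons of a gene on the opposite strand, over 204 bases (Cd164l2), 741 bases (Gm28523), 266 bases (Gm12473) and 92 bases (Spef1). Whether the counting used strand is not given in the sources used here, so reads in those stretches cannot be told apart.

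Total counts ran from 14.1 to 24.9 M (M, 1e6 counts) per library before birth and from 24.1 to 48.2 M after it. Levels are given as CPM, counts per 1e6 of the library total after TMM scaling over all 29 libraries. The limit that a count of 0 allows, taken as 3 counts, was 0.0693 to 0.231 CPM per library, which covers counting error only. Cdkn1b itself averaged 22.9 CPM in wild-type and 4.504 CPM in Cdkn1b-null libraries of E13.5, 103.3 and 12.5 in those of E18.5, 148 and 71.5 in those of PND8, and 185.1 and 51.3 in adults, with no overlap of the genotypes at any age. The libraries labelled Cdkn1b-null thus had less Cdkn1b RNA but not none, with 65.1 to 79.9 CPM at PND8, and which exons the allele removes is not given in the sources used here. In 1 library, wild-type replicate 3 at E13.5, the red blood cell markers summed to 136800 CPM, against 4427 to 9375 CPM in the others of that age. Summed germ cell and granulosa cell markers were well above the limit in every fetal library, and summed oocyte and granulosa cell markers in every PND8 library, so the cell types of the labelled tissue were present. Summed oocyte markers fell to 4.99 to 113.5 CPM at 12wk.

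Npr2, the guanylyl cyclase receptor of the granulosa cell, was the only member called different between genotypes at any age, where called means an adjusted p under 0.05. At E18.5 the wild-type ovaries had 36.2, 32.8, 28.5 and 35.4 CPM of Npr2. The Cdkn1b-null ovaries had 14.6, 19.2, 13.8 and 14.0 CPM. The lowest wild-type library lay well above the highest Cdkn1b-null library, so the groups did not overlap. The means were 33.2 ± 3.49 and 15.4 ± 2.56 CPM (SD, n = 4 each), and the Cdkn1b-null level fell by 1.12 on the log2 scale (SE 0.142, adjusted p = 0.0019 in edgeR). Leaving out each library in turn gave log2 fold changes of -1.23 to -1.07, with edgeR adjusted p from 0.0035 to 0.0133. Across all genes tested at E18.5, 4.99% were called, 1.67% in the lower direction, and 14.7% had groups that did not overlap. Of the 4 members tested at this age (Pde3a, Ccnb3, Cdc25b and Npr2), 1 was called.

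**Figure D1:**
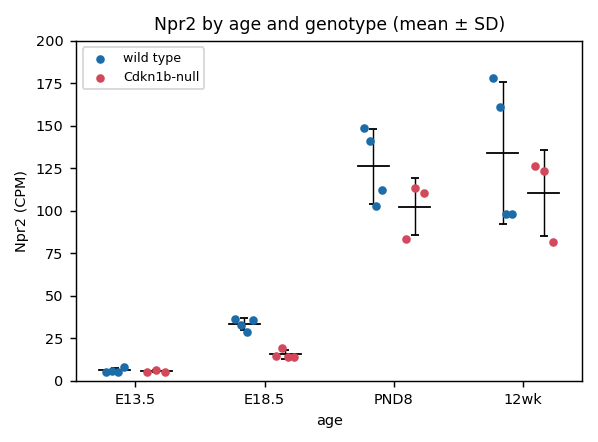
Npr2 in CPM (vertical axis, linear from 0) at each age (horizontal axis) in wild-type (blue) and Cdkn1b-null (red) ovaries. Points are libraries and black lines are means with 1 SD. At E18.5 the 4 wild-type libraries lie between 28.5 and 36.2 CPM and the 4 Cdkn1b-null libraries between 13.8 and 19.2 CPM, while the genotypes overlap at the other 3 ages.

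Other markers moved between the same 8 libraries. The 8 granulosa cell markers summed to 647.4 to 774.3 CPM in wild-type and 779.6 to 956.3 CPM in Cdkn1b-null ovaries at E18.5. Of the 7 that were tested, Inha, the inhibin alpha subunit, and Cyp19a1, the aromatase, were called higher, and none was called lower. By sign 4 of the 7 were higher, and most of the larger sum came from Inha (100.8 to 223.5 CPM), while Foxl2, Fst and Amh had lower means in Cdkn1b-null ovaries and were not called. Fshr, the receptor for follicle-stimulating hormone, stayed near the detection limit in both genotypes, at 0 in 3 of the 8 libraries. Taken per library, log2 CPM of Npr2 minus the mean log2 CPM of the granulosa markers was 1.63 ± 0.11 in wild-type and 0.06 ± 0.25 in Cdkn1b-null ovaries (SD, n = 4 each). These values could not overlap, since Npr2 was lower in every Cdkn1b-null library and the marker mean was higher (3.58 to 4.05, against 3.36 to 3.50). They are no separate support for the Npr2 difference. The 6 theca and stroma markers summed to 296.4 to 499.8 CPM in wild-type and 234.6 to 320.1 CPM in Cdkn1b-null ovaries, none of them at 0 in any library. Of these 6, the stromal transcription factors Tcf21 and Nr2f2 were called lower. The part of either cell type in the Npr2 difference was not tested. In bulk RNA of this kind, fewer cells of a type and less RNA per cell cannot be told apart. Gm12473, which shares 266 exonic bases with Npr2, did not exceed 0.310 CPM in any E18.5 library.

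At the other ages Npr2 was not called for genotype. It stood at 5.06, 5.77, 5.32 and 7.85 CPM in wild-type ovaries and at 5.28, 6.19 and 5.26 CPM in Cdkn1b-null ovaries at E13.5. At PND8 it stood at 148, 141, 103 and 112 CPM in wild-type and 83.3, 113 and 110 CPM in Cdkn1b-null ovaries, with a log2 fold change of -0.31 (SE 0.165, edgeR adjusted p = 0.412). The lowest library of that age was Cdkn1b-null, but the remaining Cdkn1b-null libraries lay within the wild-type range. At 12wk the values were 178, 161, 97.8 and 98.2 CPM and 126, 123 and 81.5 CPM, with a log2 fold change of -0.29 (SE 0.259, edgeR adjusted p = 0.773). Whether the genotype difference varied among ages was tested directly over the 3 interaction coefficients, and Npr2 was not called there (F = 5.07, edgeR adjusted p = 0.198), so the difference at E18.5 is not shown to be particular to that age. In that test 0.806% of all genes and 0 of the 8 members tested were called. At an unadjusted edgeR p under 0.05 stood 4 of these 8, Ccnb3, Npr2, Mos and Wee2, against 12.7% of all genes, and DESeq2 called 1 member, Ccnb3. That count supports nothing, since Ccnb3 passed the filter through E18.5 and Wee2 and Mos mainly through PND8, and for Ccnb3 the F of 6.42 fell to 3.75 without Cdkn1b-null E13.5 replicate 3.

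Across ages in wild type, Npr2 rose at each of the first steps. It went from 6.00 ± 1.27 CPM at E13.5 to 33.2 ± 3.49 CPM at E18.5 (SD, n = 4 each), or 2.46 higher on the log2 scale (SE 0.188, edgeR adjusted p = 2.09e-05). It then reached 126.1 ± 22 CPM at PND8 (SD, n = 4), a further log2 fold change of 1.84 (SE 0.145, edgeR adjusted p = 1.49e-06). From PND8 to 12wk it changed by 0.16 on the log2 scale (SE 0.224, edgeR adjusted p = 0.637). The genes most like Npr2 over the 29 libraries were Cyhr1, Col6a4 and Irak1, with Pearson r of log2 CPM of 0.977, 0.976 and 0.976. Libraries of an age share their stage, so such a correlation mostly follows age, and it is given as a description here and for every member below.

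Nppc, the gene of the C-type natriuretic peptide that activates Npr2, was low before birth. At E18.5 it had 1 to 10 counts per library, or 0.0516, 0.512, 0.145 and 0.335 CPM in wild-type ovaries. At PND8 the wild-type ovaries had 5.95, 4.25, 10.3 and 4.04 CPM. Every PND8 library was above every E18.5 library, and the log2 fold change was 4.44 (SE 0.559, edgeR adjusted p = 3.95e-05). Of all genes tested in this step, 70.6% had groups that did not overlap, counted in either direction. Nppc passed the filter on low counts for this comparison only through its PND8 level, so neither the call nor the lack of overlap carries weight of its own. At 12wk it had 11.7, 14.6, 10.7 and 6.45 CPM, a log2 fold change of 0.90 over PND8 that was not called (SE 0.34, edgeR adjusted p = 0.0762). That comparison was called with DESeq2 and without wild-type PND8 replicate 3 or wild-type 12wk replicate 4.

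Between genotypes Nppc was not called. The Cdkn1b-null ovaries had 10.2, 6.19 and 6.36 CPM at PND8 (log2 fold change 0.30, SE 0.344, edgeR adjusted p = 0.732). At 12wk they had 9.58, 12.3 and 5.55 CPM (log2 fold change -0.26, SE 0.323, edgeR adjusted p = 0.846). Both ranges lay across those of wild type. The genes most like Nppc were Tnks, Usp31 and Atp2a2, with r of 0.985, 0.984 and 0.981 over 29 libraries. The receptor was thus already present at E18.5, at 28.5 to 36.2 CPM in wild type, when its ligand was at 0.0516 to 0.512 CPM.

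**Figure D2:**
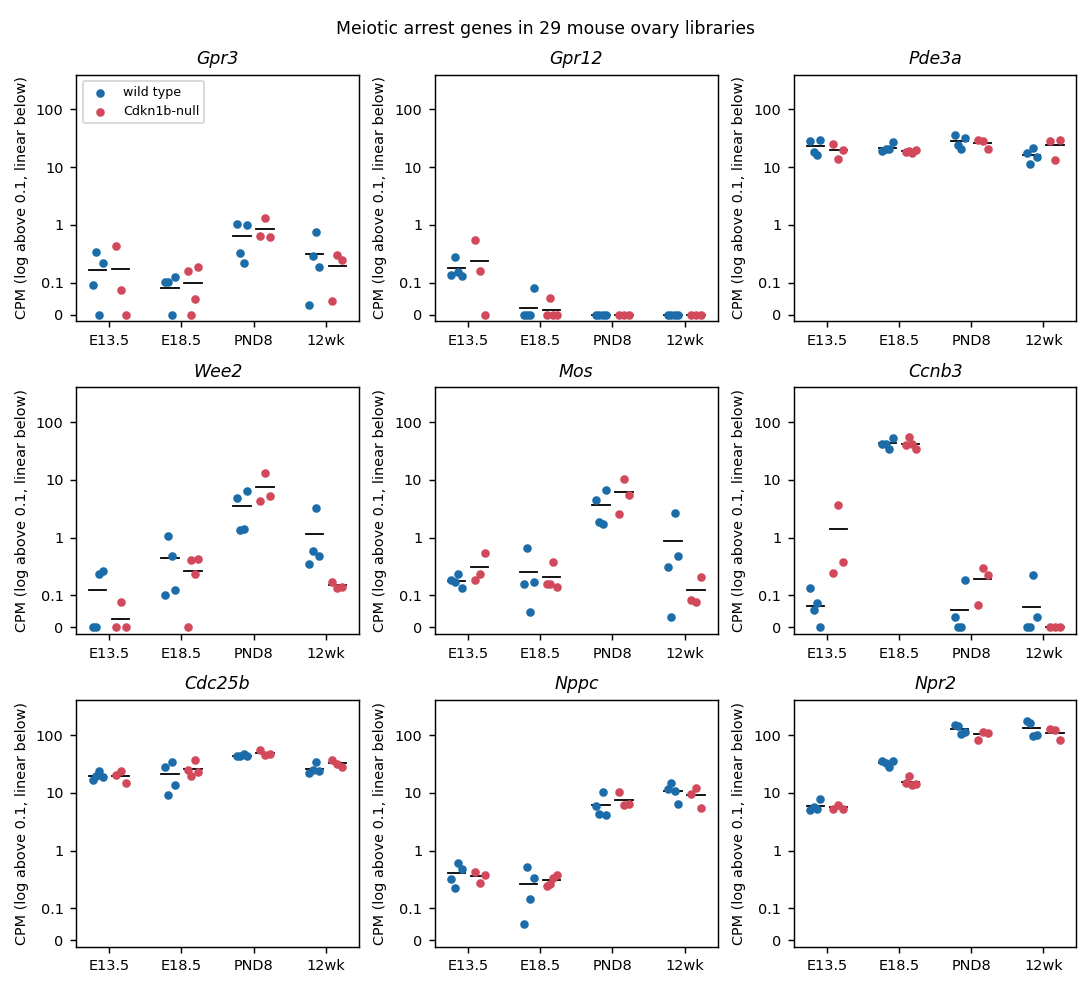
Level of each of the 9 genes in CPM (vertical axis, logarithmic above 0.1 and linear below) at 4 ages (horizontal axis), with 1 point per library, wild type in blue and Cdkn1b-null in red, and the mean as a black line. Ccnb3 stands at 34.3 to 54.3 CPM at E18.5 and at 3.70 CPM or less elsewhere, Wee2 and Mos are highest at PND8, and Gpr12 is at 0 in all 14 postnatal libraries.

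The receptors Gpr3 and Gpr12, which raise cyclic AMP through the stimulatory G protein without a known need for a ligand, were close to the detection limit in most libraries. Gpr3 had 0 to 7 counts in each library before birth. At PND8 it had 1.02, 0.325, 0.216 and 0.991 CPM in wild-type and 0.647, 1.29 and 0.611 CPM in Cdkn1b-null ovaries. The wild-type libraries formed a high and a low pair, and the Cdkn1b-null values lay across the span between them (log2 fold change 0.40, SE 0.591, edgeR adjusted p = 0.801). At 12wk the values were 0.0287, 0.289, 0.760 and 0.189 CPM and 0.0434, 0.294 and 0.243 CPM. Cd164l2, the partner on the opposite strand, averaged 4.22 to 8.66 CPM in the groups up to PND8, above Gpr3 itself, and reads in the shared bases cannot be told apart. Gpr12 had 2 to 5 counts in each wild-type library at E13.5, 3 counts in all over the 8 libraries at E18.5, and none in the 14 postnatal libraries, which allows up to 0.0693 to 0.130 CPM per library. Neither level supports a statement about the genotypes. The genes most like Gpr3 were Pabpc1l, Zbed3 and Fbxw15 (r of 0.861, 0.804 and 0.801), and those most like Gpr12 were Cntfr, Flywch1 and Itgb6 (r of 0.86, 0.856 and 0.85), in sparse counts.

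Pde3a, the phosphodiesterase that breaks down oocyte cyclic AMP and that blood vessel and heart muscle also use, was present in every library. In wild type it averaged 22.8 ± 6.5 CPM at E13.5 and 21.6 ± 3.75 CPM at E18.5, then 28.5 ± 7.18 CPM in PND8 ovaries and 16.3 ± 4.4 CPM in adult ones (SD, n = 4 each). The step from E18.5 to PND8 (log2 fold change 0.32, edgeR adjusted p = 0.169) was called only without wild-type PND8 replicate 3 (adjusted p = 0.0322). The PND8 libraries were at 36.5, 24.5, 20.7 and 32.3 CPM and the 12wk libraries at 17.6, 11.1, 21.5 and 14.8 CPM. The highest adult library lay just above the lowest PND8 library, and the log2 fold change of -0.74 was called (SE 0.239, edgeR adjusted p = 0.0449). The call was lost when any of 6 of the 8 libraries was left out: wild-type PND8 replicates 1, 2 and 4 and wild-type 12wk replicates 1, 2 and 4, with edgeR adjusted p up to 0.113. In Cdkn1b-null ovaries it averaged 19.5 ± 5.33 CPM (SD, n = 3) and 18.7 ± 0.781 CPM (n = 4) on the fetal days, then 26.0 ± 4.89 CPM (n = 3) by PND8 and 23.7 ± 9.12 CPM (n = 3) by 12wk. No genotype comparison of Pde3a was called, with edgeR adjusted p from 0.392 to 0.988. The most similar genes were Adamtsl1, C1qtnf2 and Ntrk3, with r of only 0.748, 0.74 and 0.692.

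Wee2, the oocyte kinase that puts the inhibitory phosphate on Cdk1, was at 0 to 1.07 CPM in every library before birth. At PND8 it reached 4.93, 1.38, 1.40 and 6.43 CPM in wild-type ovaries. All PND8 libraries were above all wild-type E18.5 libraries (log2 fold change 2.91, SE 0.775, edgeR adjusted p = 0.00587). In that step 70.6% of all genes tested had groups that did not overlap, in either direction. Wee2 passed the low-count filter there through its PND8 level, so neither the call nor the lack of overlap carries weight of its own. The Cdkn1b-null ovaries had 4.39, 13.2 and 5.37 CPM at PND8, of which only replicate 3 exceeded the wild-type range (log2 fold change 1.09, SE 0.667, edgeR adjusted p = 0.492). At 12wk wild-type ovaries had 0.344, 0.577, 3.23 and 0.472 CPM, and Cdkn1b-null ovaries had 0.173, 0.134 and 0.139 CPM. The adult groups did not overlap, as in 8.72% of all genes tested at 12wk, and the log2 fold change of -2.93 was not called (SE 0.944, edgeR adjusted p = 0.435). Without wild-type replicate 3 that fold change was -1.64 on the log2 scale. The adult Cdkn1b-null libraries had only 4 to 5 counts of Wee2, so the gene was tested at 12wk through the wild-type group alone, and neither its fold change nor the lack of overlap supports a difference.

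Mos, the kinase that starts the MAP kinase cascade of the maturing oocyte, followed the same libraries. It rose from 0.155, 0.666, 0.0482 and 0.167 CPM in wild type at E18.5 to 4.55, 1.87, 1.70 and 6.70 CPM at PND8 (log2 fold change 3.76, SE 0.719, edgeR adjusted p = 0.000749). Cdkn1b-null ovaries had 2.52, 10.3 and 5.53 CPM at PND8, which overlapped wild type (log2 fold change 0.71, SE 0.622, edgeR adjusted p = 0.64). At 12wk the values were 0.316, 0.0321, 2.69 and 0.472 CPM in wild type and 0.0867, 0.0802 and 0.208 CPM in Cdkn1b-null ovaries, with 1 to 85 counts per wild-type and 2 to 6 per Cdkn1b-null library (log2 fold change -2.76, SE 1.29, edgeR adjusted p = 0.551), so Mos too was tested there through the wild-type group alone. From PND8 to 12wk in wild type, the fall of neither Wee2 (log2 fold change -1.56, edgeR adjusted p = 0.187) nor Mos (-2.02, edgeR adjusted p = 0.147) was called. Without wild-type 12wk replicate 3 both were called, at -2.85 and -3.66 on the log2 scale (edgeR adjusted p = 0.0149 and 0.0118), but the remaining adult libraries then had 1 to 15 counts of Mos. Wee2 and Mos, like Nppc, entered the comparison of E18.5 with PND8 through their PND8 level, so their calls there carry no weight of their own. Mos entered that of PND8 with 12wk in the same way.

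The oocyte markers moved with these genes. The 10 markers, among them the zona pellucida genes Zp1 to Zp3 and the growth factors Gdf9 and Bmp15, summed to 606.9, 181.9, 198.5 and 692.6 CPM in wild-type ovaries at PND8. They summed to 430.7, 1012 and 558.5 CPM in Cdkn1b-null ovaries, with none at 0 in any PND8 library. The libraries with the least Wee2 and Mos were also those with the least of the markers. At 12wk the sums were 14.8, 8.75, 113.5 and 35.9 CPM in wild type and 4.99, 8.45 and 7.56 CPM in Cdkn1b-null ovaries, where Figla was at 0 in all libraries. Wild-type replicate 3, which had 3.23 CPM of Wee2 and 2.69 CPM of Mos, had the highest sum. None of the 10 markers was called for genotype at PND8, and none of the 9 tested at 12wk. All 9 were lower at 12wk (median log2 fold change -2.86, against -0.004 for all genes). The markers share a cell type, so their common direction does not count as 9 separate results. The lowest wild-type sum, 8.75 CPM, was close to the highest Cdkn1b-null sum, 8.45 CPM. The median without wild-type replicate 3 was not tested. The part of the oocyte markers in the values of Wee2 and Mos was not tested.

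The same genes were also set against the markers. Per 100 CPM of oocyte markers at PND8, Wee2 stood at 0.706 to 0.928 in wild-type and 0.961 to 1.299 in Cdkn1b-null libraries. These ranges did not overlap, but how often the same ratio separates the genotypes for other genes was not counted, so it supports no difference. Mos stood at 0.750 to 1.03 in wild-type and 0.585 to 1.02 in Cdkn1b-null libraries, and Gpr3 at 0.109 to 0.179 and 0.109 to 0.150. At 12wk the ratio of Wee2 was 1.32 to 6.59 in wild-type and 1.58 to 3.48 in Cdkn1b-null libraries, which overlapped. These ratios carry no test. The genes most like Wee2 over the 29 libraries were Btg4, Fbxw18 and Bcl2l10 (r of 0.959, 0.939 and 0.927), and those most like Mos were Nlrp4a, Slc30a3 and Nlrp2 (r of 0.936, 0.93 and 0.929). Wee2 and Mos had r of 0.839 with each other.

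**Figure D3:**
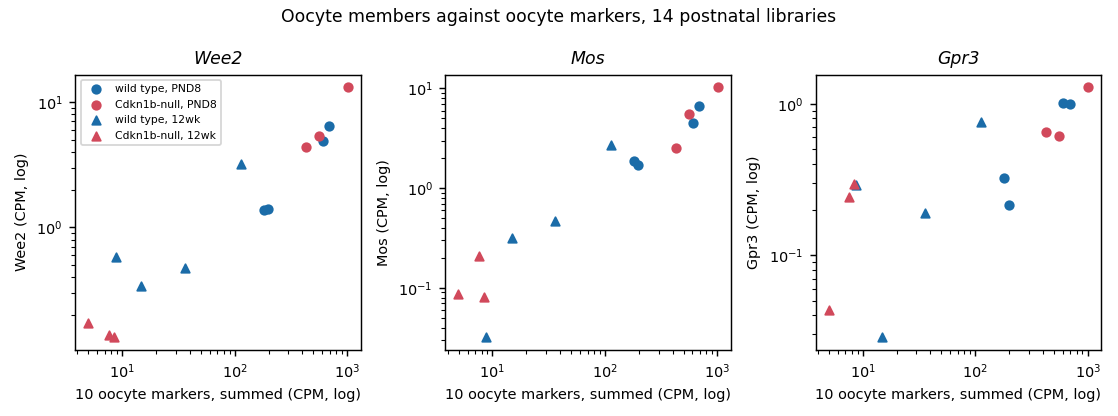
Wee2, Mos and Gpr3 in CPM (vertical axes, logarithmic) against the summed CPM of 10 oocyte markers (horizontal axes, logarithmic) in the 14 postnatal libraries, with circles for PND8, triangles for 12wk, blue for wild type and red for Cdkn1b-null. The highest triangle in each plot is wild-type replicate 3 at 12wk, with 113.5 CPM of markers, and the highest circle is Cdkn1b-null replicate 3 at PND8, with 1012 CPM.

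Ccnb3, cyclin B3, which oocytes need to leave the first meiotic metaphase, had a level confined in time in these 29 libraries. Its values at E18.5, for which it was chosen, were 41.5, 42.2, 34.7 and 53.7 CPM in wild-type ovaries. They were 40.0, 54.3, 41.5 and 34.3 CPM in Cdkn1b-null ovaries. The groups overlapped almost entirely, with means of 43.0 ± 7.87 and 42.5 ± 8.45 CPM (SD, n = 4 each) and a log2 fold change of -0.03 (SE 0.159, edgeR adjusted p = 0.938). Postnatally it had at most 10 counts in a library, or 0.293 CPM, and all 3 adult Cdkn1b-null libraries were at 0.

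At E13.5 the wild-type libraries had 0.137, 0.056, 0.0771 and 0 CPM of Ccnb3. The Cdkn1b-null libraries had 0.245, 3.70 and 0.372 CPM, all above wild type. The lowest of them had 4 counts and the highest wild-type library had 3, so the separation lay at the counting limit. Of the genes tested at E13.5, which had all passed the filter, 3.75% had groups that did not overlap. Ccnb3 was too low to pass the filter at that age, so there is no test, and 95 of the 106 Cdkn1b-null counts came from replicate 3. That library also had the highest germ cell marker sum of its age, 773.5 CPM against 221.6 to 471.8 CPM in the other 6. The part of germ cell number or stage in these counts was not tested.

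At E18.5 the 4 germ cell markers, Ddx4, Dazl, Mael and Sycp3, summed to 392.1 to 975 CPM in wild-type and 295 to 610.6 CPM in Cdkn1b-null ovaries, with none at 0 and none called. Per 100 CPM of these markers Ccnb3 stood at 9.07, 4.33, 8.86 and 7.03 in wild-type and at 12.9, 8.90, 10.3 and 11.6 in Cdkn1b-null libraries. The highest wild-type ratio exceeded the lowest Cdkn1b-null ratio, so the groups overlapped at their edges. The genes most like Ccnb3 were Spata22, Syce3 and Ccdc181 (r of 0.976, 0.968 and 0.958 over 29 libraries).

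Cdc25b, the phosphatase that removes the inhibitory phosphate from Cdk1 when the oocyte resumes meiosis, was present at every age, also where oocyte markers were low. In wild type its log2 CPM minus the mean log2 CPM of the oocyte markers was 6.24 ± 0.26 at E13.5 and 1.16 ± 1.05 at PND8 (SD, n = 4 each). Which cells of the ovary its RNA came from was not tested. Wild-type libraries at E18.5 were at 27.7, 9.16, 33.8 and 13.7 CPM, the widest spread of any age. The low replicates 2 and 4 were those with the highest germ cell marker sums, 975 and 763.7 CPM, and the high replicates 1 and 3 were those with the lowest, 457.1 and 392.1 CPM. Red blood cell markers were also higher in replicates 1 and 3, at 24160 and 32390 CPM, than in replicates 2 and 4, at 6812 and 1571 CPM. Between replicates 2 and 4 the order was the reverse of that of Cdc25b. In Cdkn1b-null libraries Cdc25b stood at 25.1, 19.7, 36.4 and 22.4 CPM, and the germ cell markers summed to 309.1, 610.6, 401.5 and 295 CPM. The highest sum was in replicate 2, which had the least Cdc25b. The lowest was in replicate 4, which was not high in Cdc25b. Red blood cell markers were again higher in replicates 1 and 3 (23910 and 12400 CPM) than in 2 and 4 (1790 and 1592 CPM). Replicate 3, which had the most Cdc25b, had less of them than replicate 1. In wild type at PND8, where Cdc25b was higher than at E18.5, these markers summed to only 7.47 to 188.4 CPM. The part of either cell type was not tested. At PND8 the libraries lay close together at 43.6, 43.2, 47.3 and 42.8 CPM. The rise between these ages was called (log2 fold change 0.99, SE 0.328, edgeR adjusted p = 0.018), though not without wild-type E18.5 replicate 4 (adjusted p = 0.052). At 12wk the values were 21.6, 24.7, 34.3 and 24.2 CPM, all below PND8, where 34.3% of all genes had no overlap (log2 fold change -0.68, SE 0.131, edgeR adjusted p = 0.00488).

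Genotype made no called difference to Cdc25b. On E13.5 Cdkn1b-null ovaries averaged 19.6 ± 4.71 CPM (SD, n = 3) and wild-type ovaries 19.7 ± 3.11 CPM (n = 4), and on E18.5 the averages were 25.9 ± 7.34 and 21.1 ± 11.6 CPM (n = 4 each). PND8 gave 48.5 ± 5.22 CPM (n = 3) and 44.2 ± 2.07 CPM (n = 4), and 12wk gave 32.2 ± 4.57 CPM (n = 3) and 26.2 ± 5.54 CPM (n = 4). The edgeR adjusted p ran from 0.512 to 0.994. Spef1, which overlaps Cdc25b by 92 exonic bases, averaged 2.34 to 18.7 CPM in the 8 groups. The most similar genes were Chek2, Spag5 and Gid8 (r of 0.889, 0.872 and 0.863).

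**Figure D4:**
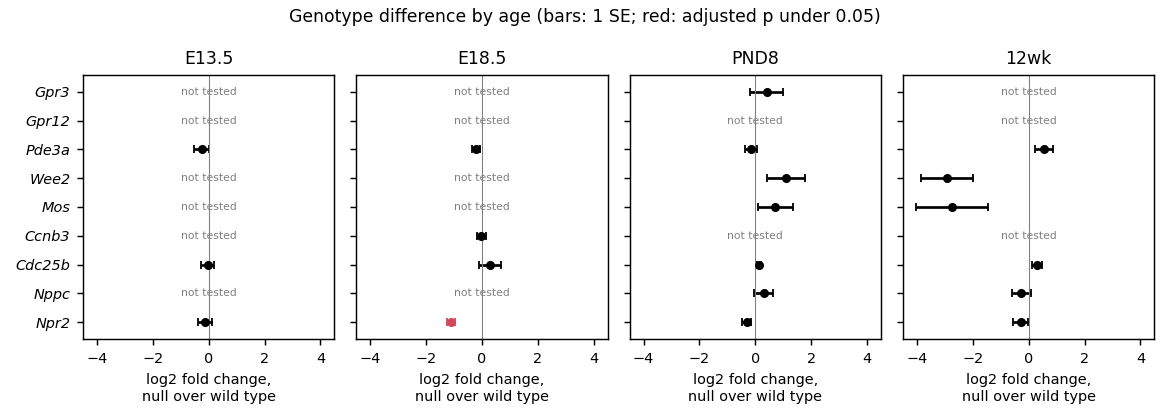
Log2 fold change of Cdkn1b-null over wild type (horizontal axis) for each of the 9 genes (rows) at 4 ages (panels), with bars of 1 SE and genes under the filter marked as not tested. The red point, Npr2 at E18.5 with -1.12, is the 1 call, and the largest fold changes, -2.93 for Wee2 and -2.76 for Mos at 12wk, have SEs of 0.944 and 1.29.

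Counted over the members, 0 of 3 tested were called for genotype at E13.5 (0.00606% of all genes tested were called), 0 of 7 at PND8 (0.349%) and 0 of 6 at 12wk (0.0115%), beside 1 of 4 at E18.5. Cdkn1b itself was not called at 12wk, so a lack of calls at that age does not show a lack of difference. At an unadjusted edgeR p under 0.05 stood 0 of the members (3.49% of all genes) for E13.5, 0 (15.0%) for PND8 and 1, Wee2 (9.63%), for 12wk, with the limit on its counts given above, and DESeq2 called no member in these 3 comparisons. Between consecutive ages in wild type, leaving Ccnb3 out where E18.5 was compared, 1 of 3 members was called from E13.5 to E18.5 (Npr2, higher) and 5 of 6 from E18.5 to PND8 (Wee2, Mos, Nppc, Npr2 and Cdc25b, all higher). From PND8 to 12wk 2 of 7 were called (Pde3a and Cdc25b, both lower). Of all genes tested, 34.0%, 74.6% and 30.5% were called in these steps, 16.6% higher, 37.6% higher and 14.3% lower in the members' direction. Of the 5 called higher after E18.5, Wee2, Mos and Nppc had to differ to be tested, so their count supports nothing.

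Set per kilobase of exon, so that genes can be compared, the order of the wild-type means changed with age. At E13.5 Cdc25b led with 5.27 CPM per kb, followed by Pde3a with 1.79 and Npr2 with 1.29, whose libraries overlapped. At E18.5 Ccnb3 led with 9.42 CPM per kb, then Npr2 with 7.12 and Cdc25b with 5.66, and Npr2 overlapped both. In Cdkn1b-null ovaries of that age Ccnb3 was at 9.31, Cdc25b at 6.96 and Npr2 at 3.30 CPM per kb, and all Npr2 libraries were below all those of Cdc25b. At PND8 Npr2 led with 27.0 CPM per kb, above Cdc25b with 11.9, which was above Nppc with 5.89 in every library. Mos followed with 2.56, Pde3a with 2.24 and Wee2 with 1.13, and Nppc, Mos, Pde3a and Wee2 each overlapped its neighbour. At 12wk Npr2 stood at 28.7, Nppc at 10.4 and Cdc25b at 7.03 CPM per kb, and Nppc and Cdc25b overlapped. The oocyte kinases Mos and Wee2 were then at 0.606 and 0.368 CPM per kb in wild-type and 0.0862 and 0.0473 in Cdkn1b-null ovaries. The wild-type SDs, 0.844 and 0.442, exceeded these means, with the highest values, 1.86 and 1.03, in replicate 3. The Cdkn1b-null libraries had 2 to 6 counts of Mos and 4 to 5 of Wee2. The genotypes overlapped for Mos, and neither gene was called, so these means support no genotype difference.

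The rest of the pathway was taken from a list of 44 genes, 26 for the oocyte side and 18 for the granulosa side. The list was chosen with earlier results of these data known. Its shares beside those of all genes are thus a description, here and for the other comparisons. At E18.5, 11 of the 40 tested were called between genotypes, all 11 higher in Cdkn1b-null ovaries, beside 3.32% of all genes called higher. The list's median log2 fold change was 0.14, against -0.042 for all genes. The 6 with the smallest p were genes of mitotic as well as meiotic division. Cdc20, an activator of the anaphase-promoting complex, went from 41.5 ± 4.27 to 125.1 ± 8.13 CPM (SD, n = 4 each; log2 fold change 1.58, SE 0.106, edgeR adjusted p = 4.56e-05). The kinases Plk1 and Aurka rose by 1.58 and 1.29, the cyclins Ccnb1 and Ccnb2 by 1.42 and 0.99, and the checkpoint gene Bub1b by 1.22 on the log2 scale, with edgeR adjusted p from 0.000955 to 0.00227. The other 5 called were Cdk1, Cdc25c, Wee1, Fbxo5 and, on the granulosa side, Gja1, the gap junction gene connexin 43 (log2 fold change 0.46, edgeR adjusted p = 0.0235). These 5 were named after their values were seen. None of the list was called lower, so no other listed gene of the natriuretic peptide branch was called with Npr2: the related receptor Npr1 had a log2 fold change of -0.31 (SE 0.126, edgeR adjusted p = 0.181) and the clearance receptor Npr3 one of -0.10 (SE 0.302, edgeR adjusted p = 0.883).

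At the other ages 0 of 38 (E13.5), 0 of 40 (PND8) and 0 of 40 (12wk) of the list were called between genotypes by edgeR, and DESeq2 called 0, 5 and 2. The interaction with age was called for 8 of 41 (19.5%, beside 0.806% of all genes), which is a description too, given how the list was chosen. In wild type, 24 of 40 (60%, beside 34.0% of all genes) were called from E13.5 to E18.5, 9 higher and 15 lower. The largest rises were those of the estrogen receptor Esr2 (log2 fold change 3.83), the anaphase inhibitor Fbxo43 (3.57) and the luteinizing hormone receptor Lhcgr (2.69), and the largest falls those of Ccnb1 (-2.38), Cdc20 (-1.95) and Plk1 (-1.88). From E18.5 to PND8, 31 of 40 were called, 25 higher and 6 lower, and their share of 77.5% is near the 74.6% of all genes. Esr2 (5.11), Npr3 (3.46) and the epidermal growth factor receptor Egfr (2.92) led the rises, and the translational regulator Cpeb1 (-2.12), Fbxo43 (-1.80) and the ligand Ereg (-0.88) the falls. From PND8 to 12wk, 22 of 41 (53.7%, beside 30.5% of all genes) were called, 4 higher and 18 lower, with Lhcgr (4.58), Gja1 (1.43) and the adenylyl cyclase Adcy9 (1.18) leading the rises and Cpeb1 (-2.23), Fbxo43 (-1.71) and the Cdk1 inhibitory kinase Pkmyt1 (-0.98) the falls.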

How the data were processed

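Expression was measured by bulk RNA sequencing in 29 ovary samples, grouped by the sample titles. The authors deposited expected counts per gene, estimated by RSEM on Ensembl genes, per the file headers; 31.4% of values above 0 were not whole. The submitters' processing notes name Trim Galore, FastQC 0.11.5, STAR 2.5.2 and RSEM 1.3.0. The build, Ensembl release and strand setting are not given in the sources used here. The header names 2 combined projects without assigning samples. Rows summed to 14.1 to 48.2 M (1e6) counts per library.

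Expected counts were rounded and tested with edgeR 4.0.16 (R 4.3.3): TMM scaling, filterByExpr (minimum count 10, minimum total 15), robust quasi-likelihood F test, Benjamini-Hochberg adjustment over all genes tested, threshold 0.05. Genotype was tested within each age, consecutive ages within wild type, and the interaction over all samples. SE is the log2 fold change divided by the square root of F. Levels per kilobase use union exon length in GENCODE M21. The code was tested on simulated data. All 39 replicate pairs differed by more than sampling noise (chi-square per degree of freedom 13 to 285), so none was merged.

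The 9 members and all lists were chosen with earlier results of these data known. Named besides the members were Cdkn1b, up to 6 pathway genes called for genotype by smallest p, up to 3 higher and 3 lower by largest log2 fold change per wild-type step, and the 3 genes with the highest Pearson r to each member (log2 CPM, prior count 2, mean CPM at least 1). Alternatives were DESeq2-type size factors (RLE), no low-count filter, DESeq2 1.42.0, all groups in 1 fit, the replicate number as a block, each replicate left out, and CPM by library total.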

Additional observations from a re-analysis of the deposited data

Results flagged for a closer look

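In 43 sets of 4 libraries, 1 gene in 1 group each, the highest or lowest library was tested for standing apart from the other 3, and 9 did. The cutoff would flag about 1 in 20 sets of normally distributed values. Sets of a few counts do not follow that distribution, so the 9 are not compared with that rate. Of these, 3 were in wild-type replicate 3 at 12wk: Wee2 at 3.23 CPM, Mos at 2.69 CPM and Ccnb3 at 0.222 CPM, each the highest of its group. That library also had the highest oocyte marker sum of the adult libraries, 113.5 CPM. At E18.5, Npr2 was highest in Cdkn1b-null replicate 2, at 19.2 CPM, Pde3a in wild-type replicate 4, at 27.1 CPM, and Mos in Cdkn1b-null replicate 3, at 0.379 CPM. Gpr12, with 1 to 5 counts each, stood apart in wild-type replicate 2 at E13.5 (0.280 CPM), wild-type replicate 4 at E18.5 (0.0836 CPM) and Cdkn1b-null replicate 2 at E18.5 (0.0523 CPM). In both E18.5 sets the other libraries had 0 counts of Gpr12, so any read would stand apart, and these 2 of the 9 carry no information.

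For 6 named pathway genes the genotype difference varied among the 4 ages by the test of the difference itself, over 3 interaction coefficients in edgeR. The adjusted p was 0.000389 for Cdc20, 0.00427 for Plk1, 0.00628 for Aurka, 0.00756 for Ccnb1, 0.0118 for Bub1b and 0.0322 for Ccnb2. These genes were chosen by their genotype difference at E18.5 in the same libraries, so the interaction is not independent evidence of it.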

How the results depend on the processing

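The Npr2 difference at E18.5 and its rises to E18.5 and to PND8 were called under RLE size factors, no filter, DESeq2, 1 fit over all groups, the replicate block and each left-out library. Of 713 alternative values of the members, 681 had the same direction and call, 10 lost a call, 8 gained one and 14 changed sign, none of which had been called. Ranges with a library left out that crossed 0 on the log2 scale were, for genotype, Npr2 -0.21 to 0.02 and Cdc25b -0.19 to 0.14 (E13.5), Ccnb3 -0.16 to 0.09 (E18.5, and 0.02 with no filter) and Gpr3 -0.03 to 0.72 (PND8). In wild type they were Pde3a -0.21 to 0.03 and Cdc25b -0.23 to 0.33 (E13.5 to E18.5, and Cdc25b -0.07 with the replicate block) and Npr2 -0.01 to 0.29 (PND8 to 12wk). The rise of Cdc25b from E18.5 to PND8 was not called without the filter (adjusted p 0.0594), nor the fall of Pde3a after PND8 without the filter (0.0618) or with the block (0.0647); Mos after PND8 was called in 1 fit over all groups (0.0394). From PND8 to 12wk 2 members were called, 1 without the filter, 1 with the replicate block and 1 to 4 with a library left out, and DESeq2 called 1 member (Ccnb3) for the interaction. Scaling by library total moved 3 levels by more than 1 SD: Pde3a in Cdkn1b-null at E18.5 to 20.4 CPM, Npr2 in wild type at E18.5 to 37.0 CPM and Cdc25b in wild type at PND8 to 40.1 CPM. RLE moved none.

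Counts of all genes called moved more. At E13.5 1 gene was called, 65 with DESeq2, 59 in 1 fit over all groups and 0 to 1 with a library left out. At E18.5 814 were called, 1685 with DESeq2 and 246 to 1372 with a library left out, over 1.5 times off for every library but wild-type replicate 1. At PND8 62 were called, 258 without the filter, 824 with DESeq2, 0 in 1 fit, 8 with the replicate block and 0 to 147 with a library left out (over 1.5 times off for all but Cdkn1b-null replicate 1). At 12wk 2 were called, 12 without the filter, 326 with DESeq2, 68 in 1 fit, 10 with the block and 0 to 3 with a library left out. The interaction had 164, 706 with DESeq2 and 72 to 235 with a library left out (over 1.5 times off without E18.5 wild-type or Cdkn1b-null replicates 3 or 4). The cause was not tested. Same-numbered libraries of the genotypes had correlated deviations of -0.098 to 0.241, above 0.1 in 7 of 13 pairs. Of the Cdkn1b-null libraries, 6 of 13 correlated best with their own number. Pairs of unlike number ran from -0.319 to 0.262. At E18.5 the same-numbered pairs were all positive, at 0.17, 0.241, 0.213 and 0.091. The labels do not say what the numbers mark. The main tests did not pair by them, and the replicate block is the alternative that did. Too low for the filter, and so not tested at this depth, were Gpr12 at every age, Gpr3 in comparisons with a fetal age and for genotype at 12wk, Wee2, Mos and Nppc within the fetal ages, and Ccnb3 for genotype at E13.5, PND8 and 12wk and from PND8 to 12wk.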
